A study of Mus musculus with 12 samples.

Results

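The genes followed here are 10 members of the SRF, myocardin and YAP pathways, out of 54352 gene symbols counted in cultured adventitial fibroblasts of the mouse aorta. They were chosen by name, with earlier results of these data known. Among them were the transcription factor gene Srf, its cofactor genes Mkl1, Mkl2 and Myocd, and the coactivator genes Yap1 and Wwtr1. The rest were the target and partner genes Ankrd1, Fhl1 and Fhl2, and Dlc1, which encodes a GTPase-activating protein. Bulk RNA was sequenced from 12 cultures of primary fibroblasts from WT C57Bl/6 mice with a labelled age of 14 weeks. All were outgrown from pieces of adventitia, the outer coat of the vessel, in DMEM with FBS, without a sort, and passaged before treatment. Ascending cultures took in the aortic root, and descending cultures came from the thoracic aorta above the renal arteries. There were 4 groups of 3 libraries: descending control, descending TGFβ, ascending control and ascending TGFβ, where control cultures received solute and TGFβ cultures mouse TGFβ at 10 ng/mL for 48 h. Whether the 3 libraries of a group came from separate animals is not stated, so the p-values measure the spread between these libraries only. The study's methods read as both sites being taken from the same male mice, while the tests treat the sites as independent.

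SRF binds a DNA element named the CArG box in the promoters of actin and other contractile genes. Its cofactors Mkl1 and Mkl2, also named Mrtfa and Mrtfb, are held in the cytoplasm by monomeric actin and reach the nucleus when actin assembles into filaments, while myocardin, the product of Myocd, is a cofactor of cardiac and smooth muscle. Yap1 and TAZ, the product of Wwtr1, act on DNA through TEAD factors and are kept out of the nucleus when kinases of the Hippo pathway phosphorylate them. Both systems respond to stretch and stiffness, and both take part in the change of fibroblasts into contractile myofibroblasts, for which TGFβ is the best known signal. Their activity is set largely by where the proteins lie in the cell, which RNA counts do not measure.

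The deposited values were raw read counts, and 16250126 to 23892943 reads per library were counted on genes. Values are given as normalized CPM, counts relative to the library total after scaling by edgeR's TMM factors, and a count of 3 was taken as the floor, which lay between 0.117 and 0.207 normalized CPM. Floors cover counting error only. Descending control replicate 3 stood apart from the other 11 libraries. It held 13031 genes with a count, against 19337 to 20931 elsewhere, and 11% of its counts were mitochondrial, against 0.703 to 1.03%. Results for the 10 genes that use the descending controls are therefore given with and without it. The fibroblast markers Pdgfra, Col1a1, Col1a2, Dcn, Lum and Thy1 were detected in every library, with sums from 10967 to 23727 normalized CPM. Smooth muscle markers were present too, and all 6 of Myh11, Cnn1, Smtn, Lmod1, Des and Actg2 were detected. Their sum was 210.4 to 259 in descending control, 354 to 376 in descending TGFβ, 158 to 167 in ascending control and 202 to 217 normalized CPM in ascending TGFβ libraries. Markers of other cells were detected at lower summed levels, which are given for descending control, descending TGFβ, ascending control and ascending TGFβ libraries in that order. The 4 adipocyte markers summed to 75.6 to 109.4, 25.0 to 45.1, 4.09 to 14.6 and 2.19 to 2.60 normalized CPM. Endothelial markers summed to 23.9 to 26.8, 9.65 to 11.3, 24.4 to 27.9 and 4.86 to 5.73, and macrophage and leukocyte markers to 9.66 to 15.6, 7.99 to 8.62, 17.5 to 67.5 and 9.94 to 12.54. Mesothelial markers summed to 6.90 to 13.1, 12.3 to 13.9, 32.9 to 42.7 and 19.6 to 26.5, Schwann cell markers to 14.8 to 24.8, 10.8 to 12.1, 21.4 to 25.9 and 14.9 to 15.7, and cardiomyocyte markers to 2.18 to 5.17, 1.95 to 2.36, 6.65 to 9.21 and 3.74 to 4.53. Adipocyte markers were thus higher in descending and mesothelial markers in ascending cultures, and the part of these cells in the results was not tested. Of these lists, 1 of 6 endothelial markers (Emcn), 1 of 6 cardiomyocyte markers (Myh6) and 1 of 4 mesothelial markers (Wt1) lay at or under the floor in all libraries, and every other marker was above it in at least 1 library. In bulk RNA, fewer cells of a type and less RNA per cell cannot be told apart.

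Promoters are shown for the members because both factors act through short DNA elements. Sequences were taken from RefSeq (GRCm38.p6) for the 250 bases upstream of each annotated start and are written 5′ to 3′ on the strand of the gene, with the element in capitals. The elements searched on both strands were the CArG box and GGAATG, the core of a TEAD site, which do not overlap in any site printed here. The Srf promoter held 2 CArG boxes and is printed over the part outside exons (chr17:46556176-46556412, minus strand). The first of 2 Fhl2 promoters held 1 (chr1:43163962-43164211, minus strand).
Srf: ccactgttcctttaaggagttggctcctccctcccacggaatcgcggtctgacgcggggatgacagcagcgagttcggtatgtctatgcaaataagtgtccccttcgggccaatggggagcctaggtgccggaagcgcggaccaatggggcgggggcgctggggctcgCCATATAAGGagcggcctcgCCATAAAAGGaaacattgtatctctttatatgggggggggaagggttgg
Fhl2: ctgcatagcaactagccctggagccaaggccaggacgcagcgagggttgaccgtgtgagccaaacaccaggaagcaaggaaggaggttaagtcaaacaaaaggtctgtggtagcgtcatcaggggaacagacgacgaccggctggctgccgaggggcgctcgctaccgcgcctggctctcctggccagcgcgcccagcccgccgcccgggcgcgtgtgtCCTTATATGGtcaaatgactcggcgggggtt

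In the Srf promoter the boxes began 82 and 62 bases before the start, and in this Fhl2 promoter the box began 31 bases before it. Windows of 30 bases are given for the elements of 5 other promoters, to show which member carried which element. The CArG boxes lay in the first Fhl1 promoter (chrX:56779571-56779600) and in the second Fhl2 promoter (chr1:43196838-43196867), and GGAATG in Ankrd1 at 2 places (chr19:36120037-36120066 and chr19:36119950-36119979), Wwtr1 (chr3:57576029-57576058) and Yap1 (chr9:8004720-8004749).
Fhl1: ccttggatcaCCTAAAATGGttaagaattt
Fhl2, second promoter: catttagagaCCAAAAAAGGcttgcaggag
Ankrd1, distal: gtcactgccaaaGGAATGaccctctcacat
Ankrd1, proximal: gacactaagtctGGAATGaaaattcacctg
Wwtr1: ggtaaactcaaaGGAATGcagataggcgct
Yap1: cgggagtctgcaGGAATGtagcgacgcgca

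Of 32807 promoter windows of the same length, 482 (1.47%) held a CArG box and 4146 (12.6%) held GGAATG. Neither element was found in the windows of Mkl1 or in the second window of Fhl1, and Mkl2 had GGAATG in 1 of its windows. The printed windows of Ankrd1 and of the second Fhl2 promoter lie in exons of other annotated transcripts. A match describes letters in a window, and binding was not measured in these cultures.

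TGFβ response was asked first within each site. Ankrd1, a stress-induced ankyrin repeat protein and a classical YAP target, was the member with the largest change in both sites, rising 4.58-fold in ascending fibroblasts and 6.09-fold in descending fibroblasts. Srf, Mkl1 and Wwtr1 were higher with TGFβ in ascending fibroblasts by 1.17-fold to 1.33-fold. Dlc1 moved in opposite directions, falling in ascending and rising in descending fibroblasts. In ascending fibroblasts 8 of the 9 members tested passed an adjusted p of 0.05 in edgeR's quasi-likelihood F-test, a two-sided test with Benjamini-Hochberg adjustment over all genes tested that stands behind every adjusted p given here, 6 upward and 2 downward. That share has to be read against a background of 55.8% of 13917 genes called in the same comparison, 28.2% upward and 27.6% downward. In descending fibroblasts 2 of 10 members were called, both upward, against 8.07% of all genes (3.59% upward and 4.48% downward). Without descending control replicate 3 the counts became 7 of 10 members and 52.9% of genes, with 6 members upward against 26.6% and 1 downward against 26.3%.

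**Figure D1:**
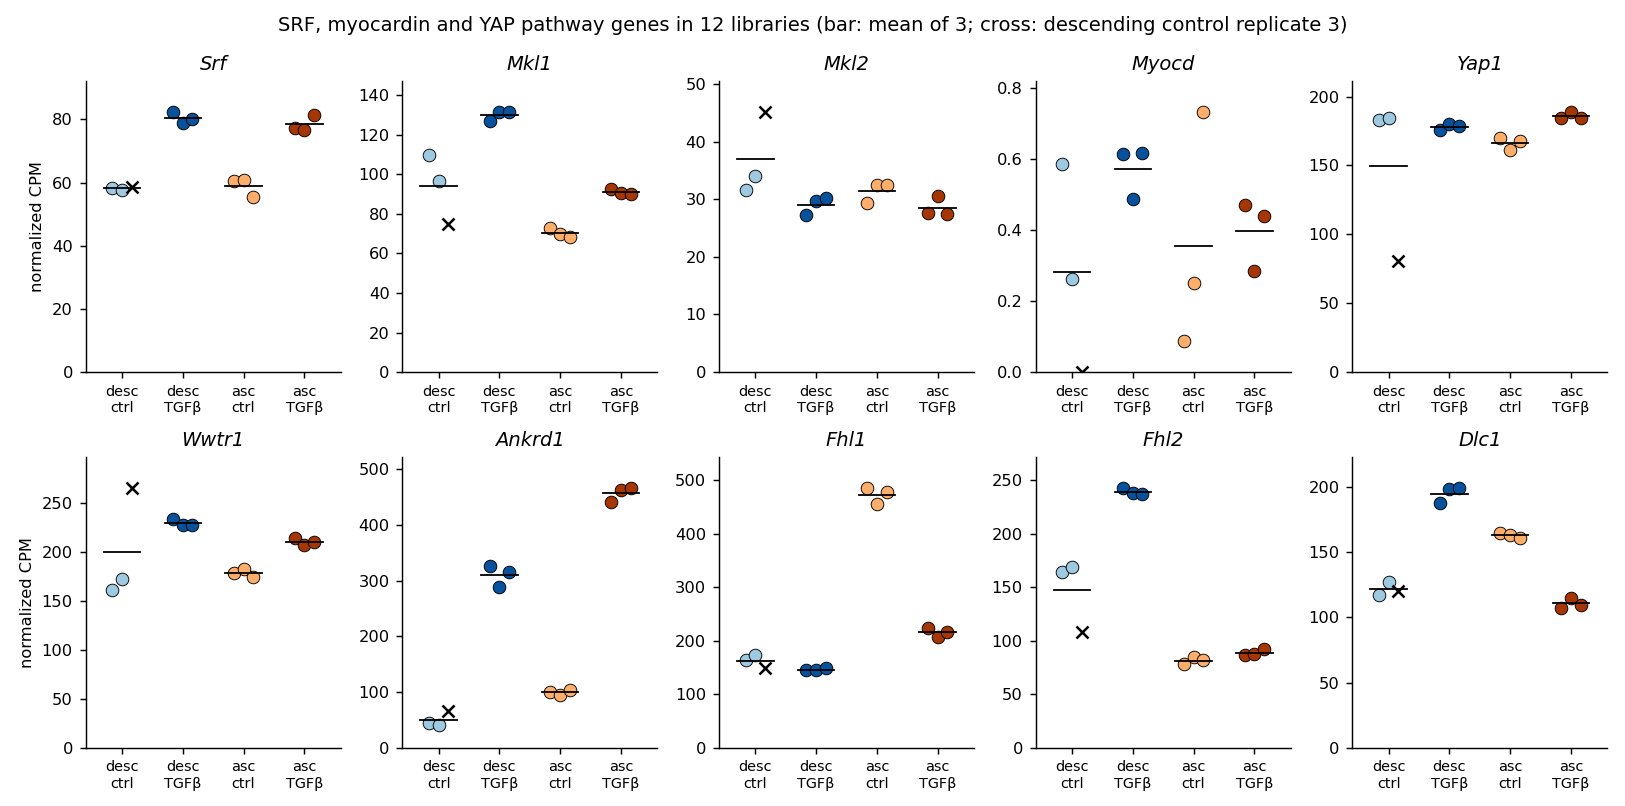
Normalized CPM of each of the 10 genes (vertical axes, linear, from 0) in every library of the 4 groups; points are libraries, horizontal bars are means of 3 and the cross is descending control replicate 3. Ankrd1 is higher in all 6 TGFβ libraries (289 to 466) than in all 6 controls (40.6 to 104), Dlc1 changes direction between sites, and the cross lies away from its group for Yap1, Wwtr1, Fhl2, Ankrd1, Mkl2 and Mkl1.

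Srf, on the minus strand of chromosome 17 (chr17:46548329-46556175, GRCm38), encodes the DNA-binding factor itself. Its levels were 58.2, 57.7 and 58.6 normalized CPM in descending control, 82.3, 78.9 and 80.1 in descending TGFβ, 60.6, 60.7 and 55.3 in ascending control, and 77.4, 76.8 and 81.5 in ascending TGFβ libraries. All 6 TGFβ libraries were above all 6 controls, and the sites overlapped within each treatment. In ascending fibroblasts Srf rose with TGFβ by a log2 fold change of 0.41 (SE 0.05, adjusted p = 2.29e-06). In descending fibroblasts the difference was 0.46 (SE 0.10, adjusted p = 0.0520), just short of the threshold. Srf in descending control replicate 3 was 1.01 times the mean of the other controls, and without that library the difference of 0.48 passed the test (SE 0.06, adjusted p = 5.49e-08). The site difference was 0.02 within control and -0.03 within TGFβ on the log2 scale, with adjusted p values of 0.923 and 0.638.

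Mkl1, the actin-sensing cofactor Mrtfa (chr15:81012281-81190757, minus strand), stood at 110.0, 96.8 and 75.1 normalized CPM in descending control and 127, 131 and 131 in descending TGFβ libraries. It stood at 72.8, 70.0 and 68.6 in ascending control and 92.6, 90.5 and 90.0 in ascending TGFβ libraries. TGFβ libraries were above the controls of their own site without overlap, and descending TGFβ libraries were above all others. Mkl1 rose by 0.36 in ascending fibroblasts (SE 0.04, adjusted p = 1.58e-06). The difference in descending fibroblasts was 0.46 (SE 0.16, adjusted p = 0.158), or 0.33 without descending control replicate 3 (SE 0.06, adjusted p = 1.39e-05). Between sites within TGFβ it was lower in ascending fibroblasts by 0.51 (log2 difference -0.51, SE 0.04, adjusted p = 3.70e-11). Within control the site difference was -0.41 (SE 0.16, adjusted p = 0.370) with all libraries and -0.54 (SE 0.06, adjusted p = 1.20e-05) without that library, whose Mkl1 level was 0.727 times the mean of the other descending controls.

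Mkl2, the related cofactor Mrtfb (chr16:13256481-13417529, plus strand), had no called difference in edgeR's main test, with all libraries of a group or without descending control replicate 3. Its values ran from 27.3 to 34.1 normalized CPM in the other 11 libraries and reached 45.1 in descending control replicate 3. The TGFβ difference was -0.14 in ascending fibroblasts (SE 0.06, adjusted p = 0.0728), and it was called without ascending control replicate 1 (-0.19, adjusted p = 0.0256) or without ascending TGFβ replicate 2 (-0.19, adjusted p = 0.0311). In descending fibroblasts it was -0.35 (SE 0.17, adjusted p = 0.292), or -0.17 without descending control replicate 3 (SE 0.08, adjusted p = 0.0627). Among the alternatives described below, limma with quality weights called this fall in all libraries. So did edgeR with the replicate number as a block and without descending control replicate 3. Mkl2 shares 2.57% of its 50-base exon sequences with Gm15738 on the opposite strand, and the strand setting of the counting is not given in the sources used here.

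Myocd (chr11:65176561-65269989, minus strand), the gene of the muscle cofactor myocardin, was close to the floor. It had 15, 6 and 0 counts in descending control, 12, 9 and 13 in descending TGFβ, 2, 5 and 15 in ascending control, and 9, 6 and 9 in ascending TGFβ libraries. Apart from sites within TGFβ (0.488 to 0.615 normalized CPM in descending and 0.284 to 0.470 in ascending libraries), the groups overlapped. It passed the filter on low counts within descending fibroblasts, in the fit of all 4 groups and, without descending control replicate 3, between sites within control. Its TGFβ difference in descending fibroblasts was 0.94 on the log2 scale with an SE of 1.06 (adjusted p = 0.640), or 0.42 without descending control replicate 3 (SE 0.51, adjusted p = 0.514). The site difference within control was -0.27 without that library (SE 0.71, adjusted p = 0.817) and was not tested with it. The interaction of site and TGFβ was -0.74 with 12 libraries (SE 1.23, adjusted p = 0.787), or -0.25 without that library (SE 0.84, adjusted p = 0.906). With at most 15 counts in a library, Myocd was called in none of the comparisons given here in which it was tested.

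Yap1 (chr9:7931999-8004596, minus strand) encodes the coactivator held back by the Hippo kinases. Its levels were 183, 184 and 80.3 normalized CPM in descending control, 176, 180.3 and 179 in descending TGFβ, 169.8, 161 and 168 in ascending control, and 185, 189 and 184 in ascending TGFβ libraries. Ascending TGFβ libraries lay above ascending controls without overlap, and Yap1 rose by 0.16 there (SE 0.03, adjusted p = 9.30e-04). The descending difference was 0.25 (SE 0.32, adjusted p = 0.682), and its sign depended on 1 library. Descending control replicate 3 had 0.437 times the Yap1 level of the mean of the other controls, and without it the difference was -0.04 (SE 0.05, adjusted p = 0.520). The site difference within control likewise went from 0.16 (SE 0.32, adjusted p = 0.814) to -0.13 (SE 0.04, adjusted p = 0.0343), which passed the test. Within TGFβ it was 0.06 (SE 0.04, adjusted p = 0.221).

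Wwtr1 (chr3:57455649-57575910, minus strand) encodes TAZ, the partner coactivator of Yap1. Descending libraries had 161, 173 and 265 normalized CPM in control and 233, 228 and 227 with TGFβ. Ascending libraries had 178, 182 and 175 in control and 214, 207 and 209.9 with TGFβ. Apart from descending control replicate 3, whose value of 265 was the highest of all 12 libraries, TGFβ libraries were above all controls. Wwtr1 rose by 0.23 in ascending fibroblasts (SE 0.03, adjusted p = 1.75e-05). In descending fibroblasts it differed by 0.19 (SE 0.21, adjusted p = 0.637), and by 0.46 without that library (SE 0.05, adjusted p = 7.38e-09). Between sites Wwtr1 was lower in ascending TGFβ libraries by a small amount (-0.12, SE 0.04, adjusted p = 0.0105), a call lost without ascending TGFβ replicate 2 (-0.11, adjusted p = 0.0616). Within control the site difference was -0.16 (SE 0.22, adjusted p = 0.733), or 0.11 without descending control replicate 3 (SE 0.05, adjusted p = 0.0973).

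Ankrd1 (chr19:36111961-36120099, minus strand) had 44.6, 40.6 and 66.6 normalized CPM in descending control and 326, 289 and 315 in descending TGFβ libraries. It had 99.4, 94.2 and 104 in ascending control and 441, 463 and 466 in ascending TGFβ libraries. The 4 groups did not overlap. Ankrd1 rose by 2.20 in log2 units in ascending fibroblasts (SE 0.04, adjusted p = 6.45e-17) and by 2.61 in descending fibroblasts (SE 0.23, adjusted p = 0.00292). Without descending control replicate 3, in which Ankrd1 was 1.56 times the mean of the other controls, the descending rise was 2.86 (SE 0.07, adjusted p = 5.61e-25), or 7.28-fold. The level remained higher in ascending fibroblasts: within TGFβ by 0.56 (SE 0.04, adjusted p = 4.81e-12), and within control by 0.98 (SE 0.22, adjusted p = 0.0985), or 1.23 without that library (SE 0.06, adjusted p = 4.84e-09).

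Fhl1 (chrX:56731787-56793346, plus strand) encodes a LIM domain protein of muscle and other tissues. Its ascending control values of 486, 456 and 477 normalized CPM were the highest of the 4 groups, and ascending TGFβ libraries had 224, 208 and 215. Descending libraries had 164, 174 and 149.8 in control and 145, 145 and 149 with TGFβ. Every ascending library was above every descending library, and the ascending controls were far above the rest. With TGFβ, Fhl1 fell by 1.14 in ascending fibroblasts (SE 0.04, adjusted p = 5.55e-14). In descending fibroblasts the difference was -0.16 (SE 0.11, adjusted p = 0.433), and -0.21 without descending control replicate 3, which passed the test (SE 0.05, adjusted p = 0.00105). Fhl1 was the single member, 1 of 9 tested, called between sites within control, where 2.65% of 14090 genes were called and 1.19% were higher in ascending fibroblasts. It was 2.92-fold higher in ascending fibroblasts (log2 difference 1.54, SE 0.11, adjusted p = 0.00372), and 2.82-fold higher without that library (adjusted p = 1.43e-11). The call was lost without ascending control replicate 1 (1.53, adjusted p = 0.0513) or ascending control replicate 3 (1.54, adjusted p = 0.0504). It was also lost with the replicate number as a block, where 0 of 14090 genes were called. Within TGFβ the site difference was smaller, 0.56 (SE 0.04, adjusted p = 2.31e-12).

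Fhl2 (chr1:43123074-43196984, minus strand), a related LIM domain protein that binds SRF and other factors, followed the opposite order of sites. It had 164, 169 and 108 normalized CPM in descending control and 243, 238 and 237 in descending TGFβ libraries, against 78.1, 84.7 and 81.6 in ascending control and 86.8, 87.7 and 91.9 in ascending TGFβ libraries. The 4 groups did not overlap, and every descending library was above every ascending library. Within TGFβ Fhl2 was lower in ascending fibroblasts, with a log2 difference of -1.43 (SE 0.04, adjusted p = 1.66e-21), the largest site difference among the members in that treatment. Within control the difference was -0.85 (SE 0.19, adjusted p = 0.105), or -1.02 without descending control replicate 3 (SE 0.05, adjusted p = 2.50e-09). The rise with TGFβ in ascending fibroblasts was 0.12 (SE 0.04, adjusted p = 0.0320). It was the least secure of the calls there, with adjusted p = 0.130 without ascending control replicate 1, 0.0599 without ascending control replicate 3, 0.0515 without ascending TGFβ replicate 2 and 0.129 without ascending TGFβ replicate 3, at log2 values from 0.09 to 0.13. In descending fibroblasts the difference was 0.69 (SE 0.19, adjusted p = 0.0886), or 0.53 without descending control replicate 3 (SE 0.05, adjusted p = 3.50e-10). The summed smooth muscle markers had the same order of groups as Fhl2, lowest in ascending control and highest in descending TGFβ, and their part in the result was not tested.

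Dlc1 (chr8:36567751-36953143, minus strand) encodes a GTPase-activating protein that loosens the actin cytoskeleton, upstream of the actin signal to Mkl1 and Mkl2. It stood at 117, 127 and 120.2 normalized CPM in descending control and 188, 198 and 199 in descending TGFβ libraries. In ascending libraries the order was reversed, with 165, 164 and 161 in control and 107, 115 and 109.7 with TGFβ. Neither pair of groups overlapped, and ascending TGFβ libraries were the lowest of all 12. Dlc1 fell by 0.56 in ascending fibroblasts (SE 0.04, adjusted p = 1.42e-09) and rose by 0.68 in descending fibroblasts (SE 0.11, adjusted p = 0.0170), with 0.68 also without descending control replicate 3 (SE 0.05, adjusted p = 7.37e-12). The call in 6 descending libraries was lost on leaving out any 1 of the other 5, with log2 values of 0.65 to 0.72 and adjusted p = 0.0772 without descending control replicate 1, 0.0726 without descending control replicate 2, 0.114 without descending TGFβ replicate 1, 0.125 without descending TGFβ replicate 2 and 0.130 without descending TGFβ replicate 3. Dlc1 was the only member called in opposite directions at the 2 sites, as were 8 of the 1042 genes called at both sites (0.768%), or 154 of 5724 (2.69%) without descending control replicate 3. The site order of Dlc1 therefore differed by treatment: ascending minus descending was 0.43 within control (SE 0.10, adjusted p = 0.114; 0.43 without that library, adjusted p = 1.25e-05) and -0.81 within TGFβ (SE 0.04, adjusted p = 1.62e-15).

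**Figure D2:**
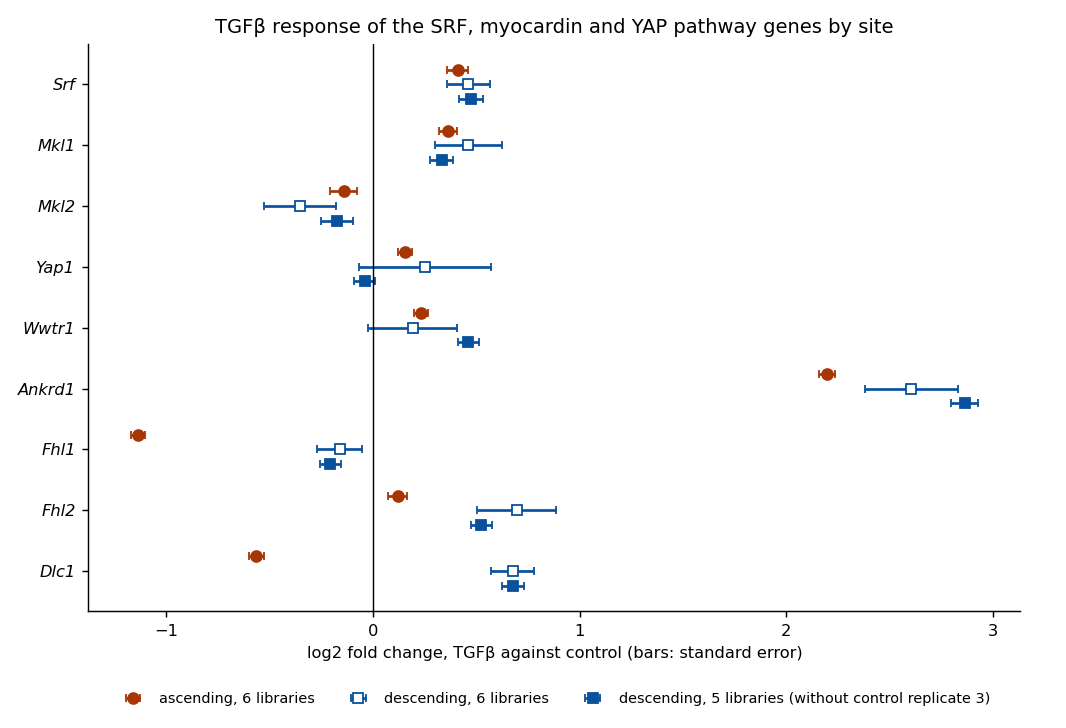
Log2 fold change, TGFβ against control, of 9 of the genes (Myocd was near the floor) in ascending fibroblasts and in descending fibroblasts with 6 and with 5 libraries; bars are standard errors. Dlc1 lies at -0.56 in ascending and at 0.68 in descending fibroblasts, and the Yap1 estimate moves from 0.25 to -0.04 when descending control replicate 3 is left out.

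Between sites, 6 of 9 members tested were called within TGFβ, where 36.3% of 13678 genes were called. Ankrd1 and Fhl1 were higher in ascending fibroblasts, against 18.1% of genes, and Mkl1, Wwtr1, Fhl2 and Dlc1 were lower, against 18.2%. Within control without descending control replicate 3, 6 of 10 were called against 31.6% of genes. Ankrd1, Fhl1 and Dlc1 were higher in ascending fibroblasts, against 16.4% of genes, and Mkl1, Yap1 and Fhl2 were lower, against 15.2%. Srf and Mkl2 were called between sites in neither treatment. The comparisons share libraries, the descending controls entering both the TGFβ and the site comparison, so their values are not independent of one another.

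**Figure D3:**
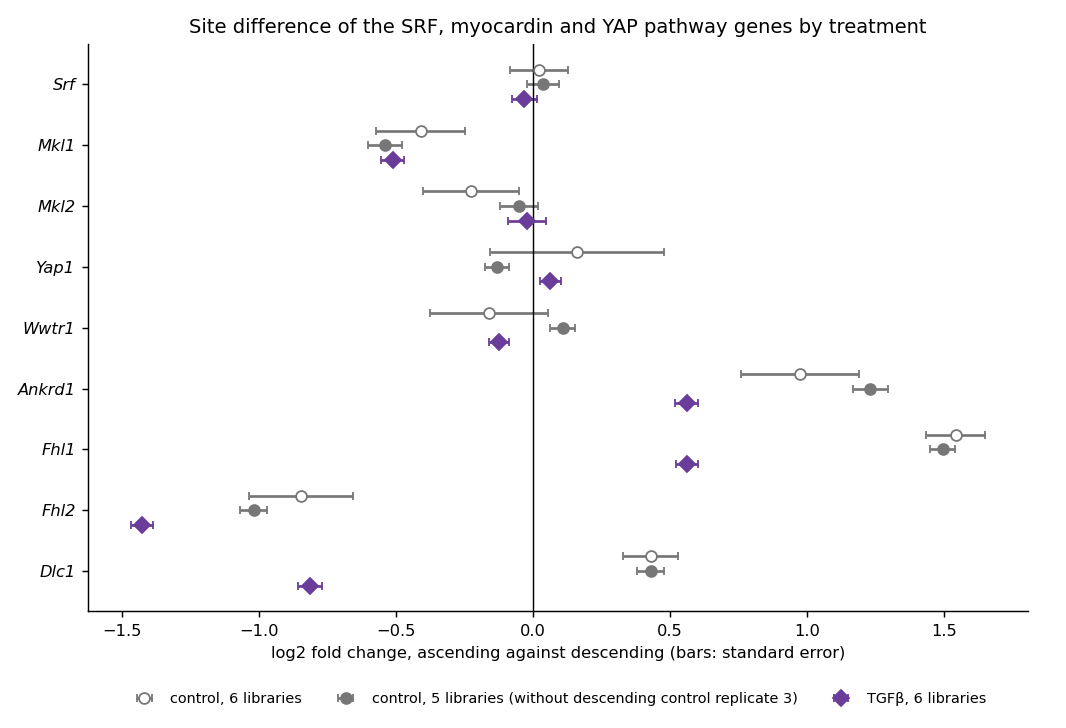
Log2 fold change, ascending against descending, of 9 of the genes within control (6 and 5 libraries) and within TGFβ (6 libraries); bars are standard errors. Fhl1 and Ankrd1 lie to the right of 0 and Fhl2 and Mkl1 to the left in both treatments, while Dlc1 lies at 0.43 in control and -0.81 with TGFβ.

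The difference of the TGFβ response between sites was tested as an interaction, where a negative value means a more negative or smaller change in ascending fibroblasts. Of the 10 members, 2 were called in the 12 libraries, both negative, against 0.806% of 14637 genes, 0.485% negative. They were Dlc1, at -1.24 on the log2 scale (SE 0.10, adjusted p = 7.42e-04), and Fhl1, at -0.98 (SE 0.11, adjusted p = 0.00411). Without descending control replicate 3, 6 of 10 were called against 13.5% of genes, 5 negative against 7.4% and 1 positive against 6.07%. Dlc1 and Fhl1 remained at -1.24 (SE 0.06) and -0.93 (SE 0.06). Ankrd1, which had -0.41 (SE 0.22, adjusted p = 0.557) with all libraries, was at -0.66 (SE 0.08, adjusted p = 6.60e-07), so its fold rise was smaller in ascending fibroblasts, from the higher control level. Fhl2 went from -0.58 (SE 0.20, adjusted p = 0.326) to -0.40 (SE 0.06, adjusted p = 4.35e-05). Wwtr1 changed sign, from 0.04 (adjusted p = 0.939) to -0.23 (adjusted p = 0.00759), as did Yap1, from -0.09 (adjusted p = 0.900) to 0.20 (adjusted p = 0.0135). For Srf, Mkl1 and Mkl2 the interaction was -0.05 (SE 0.10), -0.10 (SE 0.17) and 0.20 (SE 0.19) with all libraries, and -0.06 (SE 0.07), 0.04 (SE 0.07) and 0.03 (SE 0.10) without that library, so Mkl1 changed sign too, and none of these were called.

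Levels of different genes can be compared per length of exon, as normalized CPM per kb. The length joins the exons of all annotated transcripts of a gene, whether or not these cultures use them. In ascending control the order of group means was Fhl1 at 127 ± 4.17 (SD, n = 3), Fhl2 at 42.9 ± 1.73, Wwtr1 at 37.3 ± 0.791, Ankrd1 at 34.4 ± 1.74, Srf at 20.4 ± 1.06 and Yap1 at 17.96 ± 0.478. Mkl1 followed at 11.5 ± 0.356 and overlapped with Dlc1 at 11.1 ± 0.133, and Mkl2 at 3.50 ± 0.208 and Myocd at 0.0554 ± 0.0521 were last. With TGFβ, Ankrd1 moved to the head of the ascending order at 158 ± 4.72 and Fhl1 dropped to 58.1 ± 2.20. Fhl2 led in descending fibroblasts in both treatments, at 77.6 ± 17.9 in control, or 87.8 ± 2.01 (SD, n = 2) without replicate 3, and at 126 ± 1.67 with TGFβ. Ankrd1 in descending fibroblasts went from 17.5 ± 4.84, where its range overlapped with those of Srf and Yap1, to 107 ± 6.60. Without replicate 3 the control value was 14.8 ± 0.979 (SD, n = 2), below Srf at 20.03 ± 0.139 and Yap1 at 19.8 ± 0.0647, and the ranges did not overlap. Srf lay at 20.1 ± 0.159 in descending control and 27.8 ± 0.593 in descending TGFβ, close to its ascending values. Per length, Wwtr1 was above Yap1 in all 4 groups and Mkl1 was above Mkl2 in all 4. The first order rests in part on the joined lengths, 9.257 kb for Yap1 and 4.779 kb for Wwtr1. Before division by length, Yap1 was above Wwtr1 in descending control replicates 1 and 2 (183 and 184 against 161 and 173 normalized CPM). Wwtr1 was the higher in every other library.

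The other genes of the pathways were read from lists by role, which were also chosen with earlier results of these data known. Over all genes tested, 55.8% were called with TGFβ in ascending fibroblasts (28.2% up and 27.6% down), 8.07% in 6 descending libraries and 52.9% without descending control replicate 3, and the median log2 change over all genes was -0.00, 0.02 and -0.01 in the same order. For genes named below, TGFβ differences in descending fibroblasts are given with 6 libraries and then without that library. SRF cofactors and regulators were mixed, with 3 up and 3 down of 9 tested in ascending fibroblasts (66.7%), 1 up and 1 down of 7 in 6 descending libraries (28.6%) and 4 up and 1 down of 7 without descending control replicate 3 (71.4%). Mical2, an enzyme that oxidises nuclear actin and so frees Mkl1, rose by 0.57 in ascending and by 1.13, or 1.09, in descending fibroblasts. Its response differed between sites in both settings (interaction -0.56, or -0.51). It was higher in ascending fibroblasts within control by 0.95, or 0.90, and within TGFβ by 0.39. Mamstr, a relative of Myocd, fell by 2.49 in ascending and by 2.42, or 2.44, in descending fibroblasts. Elk4, a ternary complex factor that competes for SRF, fell by 0.20 in ascending fibroblasts, while its descending difference was 0.04, not called, or 0.26, called without that library.

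Targets of SRF with its myocardin family cofactors encode actins, calponin and other proteins of the contractile apparatus. All 21 were called in ascending fibroblasts, against 55.8% of all genes, with 18 up and 3 down and a median of 0.47. In descending fibroblasts the 8 called with 6 libraries (38.1%, against 8.07% of all genes) were upward, and without descending control replicate 3 all 21 were called against 52.9%, 20 up and 1 down, with a median of 0.73. Acta2, smooth muscle actin and the usual marker of myofibroblasts, rose by 1.72 in ascending and by 1.76 in descending fibroblasts in both settings. Calponin, Cnn1, rose by 1.94 in ascending and by 1.93, or 1.57, in descending fibroblasts. The interaction for Cnn1 was 0.02 with 12 libraries (adjusted p = 0.988) and 0.37 without descending control replicate 3 (adjusted p = 0.00716). The site difference within TGFβ was downward for 17 of the 21, against 18.2% of all genes, and upward for 1, Zyx, at 0.41, against 18.1%. The list holds 5 of the 6 smooth muscle markers (Myh11, Cnn1, Smtn, Lmod1 and Actg2), all of them among the 17, and the sum of the 6 was 202 to 217 normalized CPM in ascending TGFβ against 354 to 376 in descending TGFβ libraries. The part of smooth muscle cells in the site difference was not tested. Myh11, smooth muscle myosin, fell by 0.63 in ascending fibroblasts. Its descending difference was 0.38 with 6 libraries, not called, and a rise of 0.77 without that library, with an interaction of -1.01, not called, or -1.39, called. Tagln rose by 1.501 in ascending fibroblasts and had 1.34, not called, or 1.03, called, in descending fibroblasts, but 67.9% of its exon bases overlap Gm48529 and Pcsk7, so its counts are uncertain.

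Of the 8 early response genes that SRF drives with ternary complex factors, 4 rose and 1 fell in ascending fibroblasts (62.5%, against 55.8% of all genes). In descending fibroblasts 1 of the 8 rose, against 8.07%, or 2 rose and 2 fell without descending control replicate 3 (50%, against 52.9%), so the shares lay near those over all genes. Egr2 rose by 3.01 in ascending and by 2.61, or 2.69, in descending fibroblasts. Egr1, an immediate early zinc finger factor, had -0.03 in ascending fibroblasts, which was not called. Its descending value was -1.52 (adjusted p = 0.0531), or a fall of 1.15 without that library, with an interaction of 1.49, not called, or 1.13, called.

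The Hippo list held 17 kinases, scaffolds and junction proteins that restrain Yap1 and TAZ. In ascending fibroblasts 5 rose and 5 fell (58.8%, against 55.8% of all genes). In descending fibroblasts 1 rose with 6 libraries (5.88%, against 8.07%), or 6 rose and 5 fell without descending control replicate 3 (64.7%, against 52.9%), so these shares with TGFβ too lay near the background. Between sites within TGFβ, 7 were higher and 5 lower in ascending fibroblasts (70.6%, against 36.3%). Within control 0 were called with all libraries (against 2.65%), or 58.8% without that library (against 31.6%). The interaction was called for 0 of the 17 with 12 libraries (against 0.806%), or for 52.9% without that library (against 13.5%). The genes named next were called in descending fibroblasts without that library and not with it. Stk4, a core kinase, rose by 0.60 in ascending fibroblasts and had 0.42, or 0.62, in descending fibroblasts. Sav1, the scaffold of the core kinases, fell by 0.65 in ascending fibroblasts and had -0.63, or -0.88, in descending fibroblasts, while 25.4% of its exon bases overlap Atl1. Frmd6 fell by 0.92 in ascending fibroblasts and had -0.96, or -1.20, in descending fibroblasts. Amot, which binds Yap1 at junctions, rose by 0.35 in ascending fibroblasts and had -0.46, or -0.57, in descending fibroblasts, with an interaction of 0.80, not called, or 0.92, called. Wwc1, a scaffold also named Kibra, stood at 28.1 to 33.4 normalized CPM in all ascending libraries. In descending fibroblasts its difference was 1.91 with 6 libraries, or 1.35 without descending control replicate 3, from 10.3 and 7.68 in 2 of the controls to between 20.6 and 24.6. No read was counted in that library, where its floor was 0.207 normalized CPM.

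Of the TEAD and VGLL factors, 6 of 8 passed the filter. In ascending fibroblasts 3 rose and 3 fell, all 6 called against 55.8% of all genes. In descending fibroblasts 1 rose with 6 libraries (16.7%, against 8.07%), or 5 rose and 1 fell without descending control replicate 3, all 6 against 52.9%. Tead4 rose at both sites, by 0.91 in ascending and by 1.04, or 1.14, in descending fibroblasts. Tead3 fell by 0.15 in ascending fibroblasts, while its descending difference was 0.37, not called, or 0.35, called without that library, with an interaction of -0.53, not called, or -0.50, called.

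Among 21 YAP and TAZ targets other than Ankrd1, 12 rose, against 28.2% of all genes, and 5 fell, against 27.6%, in ascending fibroblasts, with a median of 0.44. In descending fibroblasts 4 rose and 1 fell (23.8%, against 8.07%), or 13 rose and 4 fell without descending control replicate 3 (81%, against 52.9%), with a median of 0.58. Ctgf, the matricellular protein most used as a YAP readout, rose by 1.65 in ascending and by 2.14, or 2.03, in descending fibroblasts, though 23.2% of its exon bases overlap Gm15270. Nuak2, a kinase, rose by 1.74 in ascending and by 2.53, or 2.26, in descending fibroblasts, and F3, tissue factor, by 1.97 and by 1.67, or 1.81. The interaction was called without that library for Ctgf (-0.38) and Nuak2 (-0.52), but not with 12 libraries (-0.49 and -0.79), and in neither setting for F3 (0.30, or 0.16). Igfbp3 fell by 1.502 in ascending and by 1.42, or 1.34, in descending fibroblasts. Between sites within TGFβ 5 were higher in ascending fibroblasts, against 18.1% of all genes, and 13 lower, against 18.2%, F3 the furthest at -2.78. Within control 1 was higher and 1 lower with all libraries, against 1.19% and 1.47% of all genes. Without descending control replicate 3, 8 were higher and 9 lower, against 16.4% and 15.2%.

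**Figure D4:**
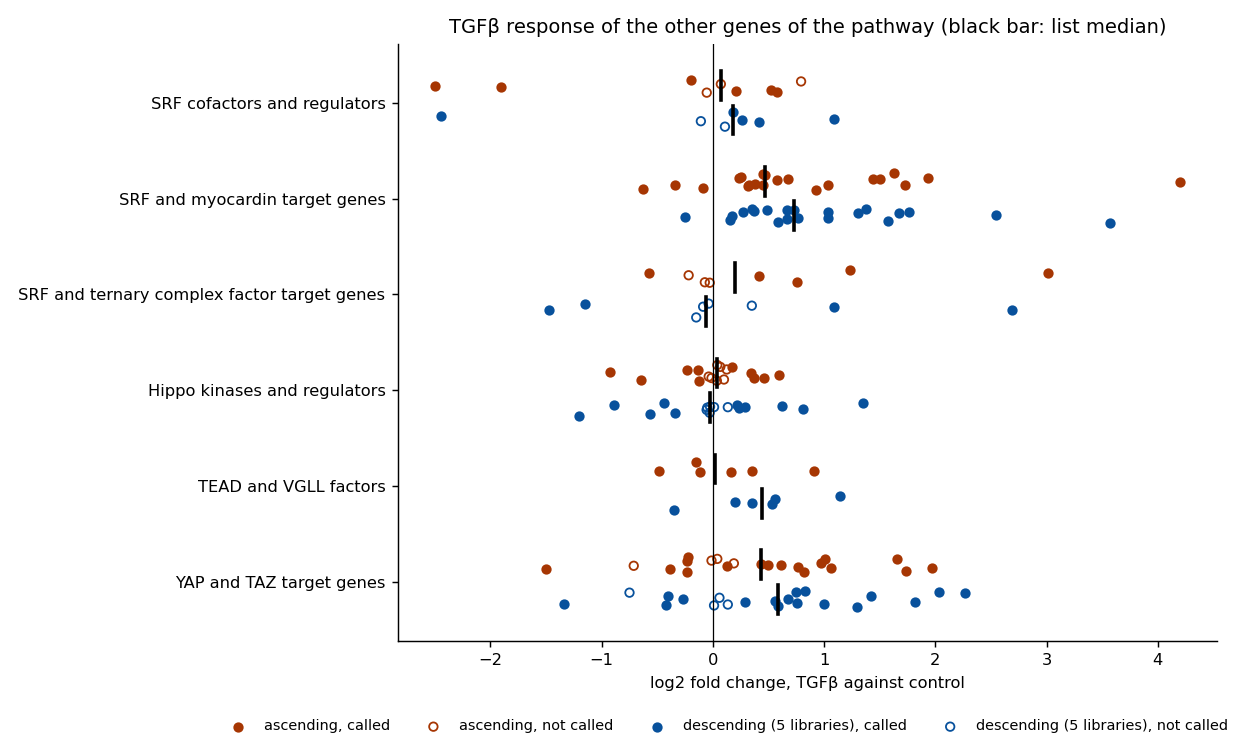
Log2 fold change with TGFβ (horizontal axis) of each tested gene on 6 pathway lists, in ascending fibroblasts (6 libraries, upper row of each list) and descending fibroblasts (5 libraries, lower row); filled points were called, open points were not, and black bars are list medians. The targets of SRF and myocardin lie mostly to the right of 0 at both sites, with medians of 0.47 and 0.73, while the Hippo list is centred near 0.

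Paralogs of members were read as well, and 5 of 7 passed the filter. In ascending fibroblasts 2 rose and 2 fell (80%, against 55.8% of all genes), and in descending fibroblasts 1 rose and 1 fell (40%, against 8.07%), or 2 rose and 2 fell without descending control replicate 3 (80%, against 52.9%). Fhl3, a relative of Fhl1 and Fhl2, rose by 0.82 in ascending fibroblasts, and its descending difference was 0.82, not called, or 0.64, called without that library (interaction 0.00, or 0.18, neither called). Of the Dlc1 relatives, Stard13 rose by 0.20 in ascending and by 0.62 in descending fibroblasts in both settings (interaction -0.42, not called, or -0.41, called). Stard8 fell by 0.44 in ascending fibroblasts, and its descending difference was -0.81, not called, or -1.08, called without that library (interaction 0.37, not called, or 0.64, called). Fhl5 and Ankrd2 lay near the floor, and Ankrd23 reached at most 1.07 normalized CPM.

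For each member above 1 normalized CPM, the genes with the most similar profile were sought among 12709 genes, as Pearson's r of log2 CPM over the 11 libraries other than descending control replicate 3. These libraries share 4 groups, so an r describes a common pattern of group means, and it carries no p. Srf was most like Yrdc (0.994) and Pdcd11 (0.991), Mkl1 like Cers5 (0.991) and F3 (0.989), and Wwtr1 like Crabp2 (0.990) and Robo1 (0.988). Ankrd1 was most like Fkbp11 (0.996) and Tnfrsf11b (0.996). Fhl1 followed Col3a1 (0.994), a fibrillar collagen gene, and Gyg (0.990), and Fhl2 followed Lgalsl (0.997) and Plac8 (0.996). Dlc1 had Flt1 (0.968) nearest. For Mkl2 (Foxo3, 0.944, and Kmt2a, 0.914) and Yap1 (Bclaf1, 0.951, and Gm13461, 0.918), which changed little, the likeness was lower. Adding descending control replicate 3 turned the value of Bclaf1 to -0.94 and that of Foxo3 to -0.13, and lowered those of Pdcd11 to 0.661, Gm13461 to 0.701 and Flt1 to 0.796. With that library the other genes named here lay between 0.827 (Crabp2) and 0.996 (Fkbp11).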

How the data were processed

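RNA of 12 cultures was sequenced in 4 groups of 3 libraries, grouped as the labels give site and treatment. Per the study's methods, the authors mapped the read pairs to the mm10 genome and counted them with featureCounts. They deposited these counts, not normalized, with 1 row for each gene symbol. The submitters' processing notes also name STAR, FastQC and DESeq2. Strand setting and handling of reads that match several genes are not given in the sources used here. The labels and the study's methods give different ages.

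Counts were tested in R 4.3.3 with edgeR 4.0.16: filterByExpr defaults (minimum count 10, minimum total 15), TMM normalization, quasi-likelihood F-test and Benjamini-Hochberg adjustment over all genes tested, with adjusted p under 0.05 as a call. Each comparison used the libraries compared, and the interaction used all 12. Alternatives were DESeq2 1.42.0, its size factors in edgeR, no filter, at least 10 counts in every library, a replicate block, limma 3.58.1 voom with quality weights, fits of 12 and 11 libraries, and each library left out. Combinations of DESeq2, its size factors and the block with descending control replicate 3 left out were added after seeing the data. Fits were tested on simulated data. Coordinates and exon lengths came from GENCODE vM21 (GRCm38), promoter sequences from RefSeq (GRCm38.p6, 8 of 10 members matched). Figures were drawn with matplotlib 3.10.9.

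The 10 genes and the lists were chosen with earlier results of these data known. All 10 genes are named, whether or not they passed the filter. Other genes were named from up to 3 per direction and list with the largest change in ascending fibroblasts, up to 2 per direction in the interaction and between sites within TGFβ, the paralogs of members, and the 2 nearest profiles of each gene, by Pearson's r on log2 CPM (prior count 2). One list of genes and 1 of the nearest profiles are not reported here.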

Additional observations from a re-analysis of the deposited data

Results flagged for a closer look

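The response to TGFβ differed between sites for 2 of the 10 genes in the 12 libraries, against 0.806% of all genes, and for 6 of 10 without descending control replicate 3, against 13.5%, by a test of the interaction in edgeR. A negative value means a more negative or smaller change in ascending fibroblasts. In the 12 libraries the interaction was -1.24 for Dlc1, which moved in opposite directions, and -0.98 for Fhl1, which fell further in ascending fibroblasts. Without descending control replicate 3 it was -1.24 for Dlc1, -0.93 for Fhl1, -0.66 for Ankrd1, -0.40 for Fhl2, -0.23 for Wwtr1 and 0.20 for Yap1. In edgeR the last 4 were called without that library and not with it. With sample quality weights, limma called the same 6 genes in all 12 libraries, where it called 1979 of 14637 genes. Its adjusted p was 2.13e-06 for Ankrd1, 1.25e-04 for Fhl2, 0.0187 for Wwtr1 and 0.0311 for Yap1. Such weights count a library that stands apart for less, so this fit is not independent of leaving that library out. Markers of other cells also differed between sites in their summed level. In ascending against descending control libraries, smooth muscle markers summed to 158 to 167 against 210.4 to 259 normalized CPM, adipocyte markers to 4.09 to 14.6 against 75.6 to 109.4, mesothelial markers to 32.9 to 42.7 against 6.90 to 13.1, macrophage and leukocyte markers to 17.5 to 67.5 against 9.66 to 15.6, and cardiomyocyte markers to 6.65 to 9.21 against 2.18 to 5.17, while the ranges of endothelial and Schwann cell markers overlapped. Their part in these results was not tested.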

How the results depend on the processing

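Of the comparisons of single genes under the alternatives, 106 of 117 within ascending fibroblasts, 112 of 117 between sites within TGFβ and 180 of 207 in the interaction kept direction and call, and 119 of 169 within descending fibroblasts and 107 of 153 between sites within control did. In ascending fibroblasts, one fit of 12 libraries called 4 of the members and 2338 genes, against 8 and 7767, while the same fit without descending control replicate 3 (one fit of 11 libraries) called 8 and 7878, so the lower counts came with that library. For the TGFβ response in descending fibroblasts, with 2 members and 1115 genes called, DESeq2's test gave 5 and 2531, limma with quality weights 8 and 7335, one fit of 12 libraries 5 and 3570, and one fit of 11 libraries 7 and 7704. Leaving out 1 library gave 1 to 7 members and 213 to 7576 genes. With descending control replicate 3 left out, DESeq2 gave 7 and 6582, its size factors 7 and 7564. Between sites within control, with 1 member and 374 genes called, DESeq2 gave 4 and 1151, limma 5 and 4392, one fit of 12 libraries 5 and 1545, one fit of 11 libraries 6 and 4953, and leaving out 1 library 0 to 6 members and 33 to 4631 genes, where edgeR called 0 members without ascending control replicate 1 or 3 although 4 had an unadjusted p under 0.05 in each. With descending control replicate 3 left out, DESeq2 gave 6 and 3804 and its size factors 6 and 4617. Between sites within TGFβ, with 6 members and 4963 genes called, one fit of 12 libraries gave 4 and 1106 and one fit of 11 libraries 6 and 4941. In the interaction, with 2 members and 118 genes called, DESeq2 called 497 genes, no filter 56, limma 6 members and 1979 genes, and leaving out 1 library 2 to 6 members and 25 to 2022 genes. With descending control replicate 3 left out, DESeq2 gave 6 and 1849 and its size factors 6 and 2015.

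The correlation of deviations from group means lay between -0.026 and 0.088 for libraries with the same replicate number. For libraries with different numbers it lay between -0.093 and 0.073, so the ranges overlapped. With 3 libraries in a group, such values cannot exclude that cultures with the same number shared animals. With the replicate number as a block, edgeR called 1 member and 95 genes within descending fibroblasts (Dlc1 0.68, adjusted p = 0.141), 0 members and 0 genes between sites within control, where 4 members and 1235 genes had an unadjusted p under 0.05, and 50 genes in the interaction. With the block and descending control replicate 3 left out, the calls were 8 members and 7168 genes, 6 and 4664, and 6 and 2024 in the same order.

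Some directions turned where descending control replicate 3 lost its weight. The values follow for limma with quality weights, then, except in the interaction, one fit of 11 libraries, then DESeq2's test, the replicate block and DESeq2's size factors in edgeR, the last 3 without that library. Yap1 within descending fibroblasts was -0.043, -0.041, -0.036, -0.044 and -0.036. Between sites within control Yap1 was -0.13, -0.14, -0.13, -0.14 and -0.13, and Wwtr1 was 0.092, 0.097, 0.11, 0.12 and 0.11. In the interaction Mkl1 was 0.019, 0.019, 0.029 and 0.019, Yap1 was 0.20, 0.18, 0.20 and 0.18, and Wwtr1 was -0.21, -0.24, -0.23 and -0.24. Leaving out 1 library moved Yap1 between -0.041 and 0.43 within descending fibroblasts, between -0.13 and 0.34 between sites within control and between -0.27 and 0.20 in the interaction. It moved Wwtr1 between -0.29 and 0.11 within control and between -0.23 and 0.17 in the interaction, and Mkl1 between -0.23 and 0.036 there. For Yap1, Wwtr1 and Mkl1 the turn came without descending control replicate 3. Myocd ranged from -1.75 to 0.31 in the interaction, positive without ascending control replicate 3, and was 0.071 under the block without descending control replicate 3. Mkl2 between sites within TGFβ ranged from -0.077 to 0.0085, positive without descending TGFβ replicate 3 or ascending TGFβ replicate 3.

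Myocd was close to the floor, with at most 15 counts in a library. In the descending comparisons the difference between descending control replicate 3 and the other controls went with larger standard errors, and leaving it out lowered that of Yap1 from 0.32 to 0.05.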
